A study of Arabidopsis thaliana with 16 samples.

Results

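The 35 genes described here encode enzymes and regulators of the Calvin cycle and of photorespiration in Arabidopsis thaliana. They were chosen as a list of loci by function, a rule that uses no measured value, and all 35 were found among the 27206 protein-coding genes of the expression table. The list was drawn up with earlier results of these data known. The list holds 5 genes of Rubisco and its activase, 14 genes of other Calvin cycle enzymes, the 3 CP12 genes and 13 genes of photorespiration. The level of a gene is the sum over its transcripts of its FPKM, fragments scaled to the length of the transcript and to the mapped total of the library.

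In the Calvin cycle, Rubisco adds CO2 to ribulose bisphosphate in the chloroplast, and the other enzymes reduce the product to triose phosphate and rebuild the acceptor. Rubisco also adds oxygen, and photorespiration carries the resulting glycolate through peroxisome, mitochondrion and chloroplast to recover its carbon. Both pathways belong to green leaf cells. Phosphorylated sugars are intermediates of the Calvin cycle, and Pi is exchanged for triose phosphate at the chloroplast envelope. The large subunit of Rubisco is encoded in the chloroplast genome, whose reads the authors removed, and it was not analysed here.

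The seedlings were wild type Col-0, 10 days old, grown on agar with 1% sucrose in days of 16 h light with 8 h dark. P– medium held 0.65 mM K2SO4 in place of the 1.25 mM KH2PO4 of P+ medium. RNA of whole roots and whole shoots was split into a fraction bound to oligo(dT), poly(A)+, and the unbound fraction, poly(A)–, which gave 8 groups of 2 biological replicates and 16 libraries in all. The groups were P– roots, P+ roots, P– shoots and P+ shoots in each fraction, and values are of the poly(A)+ fraction unless stated otherwise. The labels give replicate 1 of the shoots a first-strand and replicate 2 an unstranded read setting, and the root columns are numbered 2 and 3, which no label ties to a replicate. The study describes every library as strand-specific, and which of these statements holds was not settled here. The deposited tables hold no read counts, and the read totals that the study lists per library were not used here.

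By the limma test given below, all 6 Pi starvation markers were higher in P– than in P+ plants in both tissues. Of all genes tested, 2.47% were higher in roots and 5.09% in shoots. Of 10 shoot markers, 8 were listed at 0 in every root poly(A)+ library, and the summed level of the list was 3.98 and 4.94 FPKM in P– roots, against 0.737 and 1.01 FPKM in P+ roots. That sum was nearly all ATML1, an epidermal regulator. The 12 root markers summed to 88.7 and 76.3 FPKM in P– shoots, against 30.0 and 25.0 FPKM in P+ shoots. By the limma test, 5 of the 12 were higher in P– shoots (5.09% of all genes tested). In whole organs, fewer cells of a type and less RNA per cell cannot be told apart.

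The 35 genes lie on all 5 chromosomes (11, 7, 9, 4 and 4 on chromosomes 1 to 5). The promoters of 3 genes are shown because their genes stood at the ends of the root response to P–. AGT1 had the most negative log2 change of the 35 genes, and RBCS3B and cpFBPase the most positive changes. Each is the 250 bases before the annotated gene start, 5′ to 3′ on the strand of the gene, from the RefSeq copy of TAIR10.1. Their positions are chr2:5541480-5541729 (minus strand) for AGT1, chr5:15378643-15378892 (minus strand) for RBCS3B and chr3:20016587-20016836 (plus strand) for cpFBPase. Capitals mark the G-box CACGTG and the I-box GATAAG on either strand, elements known from promoters of light-responsive photosynthesis genes.
AGT1: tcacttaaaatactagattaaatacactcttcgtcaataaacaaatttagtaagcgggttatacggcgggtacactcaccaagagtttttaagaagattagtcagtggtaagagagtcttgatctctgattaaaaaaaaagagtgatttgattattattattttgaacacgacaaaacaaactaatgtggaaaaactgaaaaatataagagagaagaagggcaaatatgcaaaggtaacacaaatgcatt
RBCS3B: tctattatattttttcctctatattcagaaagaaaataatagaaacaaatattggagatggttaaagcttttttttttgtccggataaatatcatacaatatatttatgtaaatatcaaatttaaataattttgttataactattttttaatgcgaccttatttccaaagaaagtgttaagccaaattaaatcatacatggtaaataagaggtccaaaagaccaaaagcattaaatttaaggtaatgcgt
cpFBPase: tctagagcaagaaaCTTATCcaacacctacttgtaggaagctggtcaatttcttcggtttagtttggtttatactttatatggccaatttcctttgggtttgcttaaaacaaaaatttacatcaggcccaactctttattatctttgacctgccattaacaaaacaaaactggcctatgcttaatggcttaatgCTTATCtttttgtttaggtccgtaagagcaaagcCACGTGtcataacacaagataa
Searches on both strands covered these 2 motifs and the P1BS motif GNATATNC, the sequence bound by the Pi starvation regulator PHR1. The cpFBPase promoter held 1 G-box, 22 bases before the gene start, and 2 I-boxes, and the other promoters shown held no match in this window. The P1BS motif was found before 2 of the 35 genes (TKL1 and RPE), against 5.46% of 27443 promoters of the same length. The G-box was found before 5 genes (RBCS2B, cpFBPase, PRK, GGT1 and GLDP1), against 6.49% of promoters, and the I-box before 6 (RBCS2B, RCA, cpFBPase, CP12-2, CP12-3 and GLDP2), against 12.3%. The motifs are matches of letters only, and a window without a match leaves the rest of the promoter unsearched.

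The 35 genes took 0.153 and 0.169% of the summed FPKM of all genes in P– roots, against 0.23 and 0.251% in P+ roots. In shoots their share was 2.4 and 2.41% under P–, against 3.35 and 3.33% under P+. The groups did not overlap in either tissue. RBCS3B and RBCS1A were the most abundant members in P+ shoots on the FPKM scale, and CP12-1, a small regulator that binds GAPDH and phosphoribulokinase, was the most abundant in P+ roots.

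Roots were compared with shoots first, to show how much of each transcript the roots hold. A limma test on log2(FPKM + 1), with p adjusted by Benjamini and Hochberg over the 19743 genes tested, called a gene at an adjusted p under 0.05. Under P–, 32 of the 35 genes were lower in roots than in shoots (16.2% of all genes tested were), and none was higher (27.4% of all genes). Under P+, 33 were lower in roots (17.5% of all genes) and 1 was higher (29.8%). The median log2 difference of the members was -5.19 under P– and -4.53 under P+, against 0.32 and 0.35 for all genes tested.

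**Figure D1:**
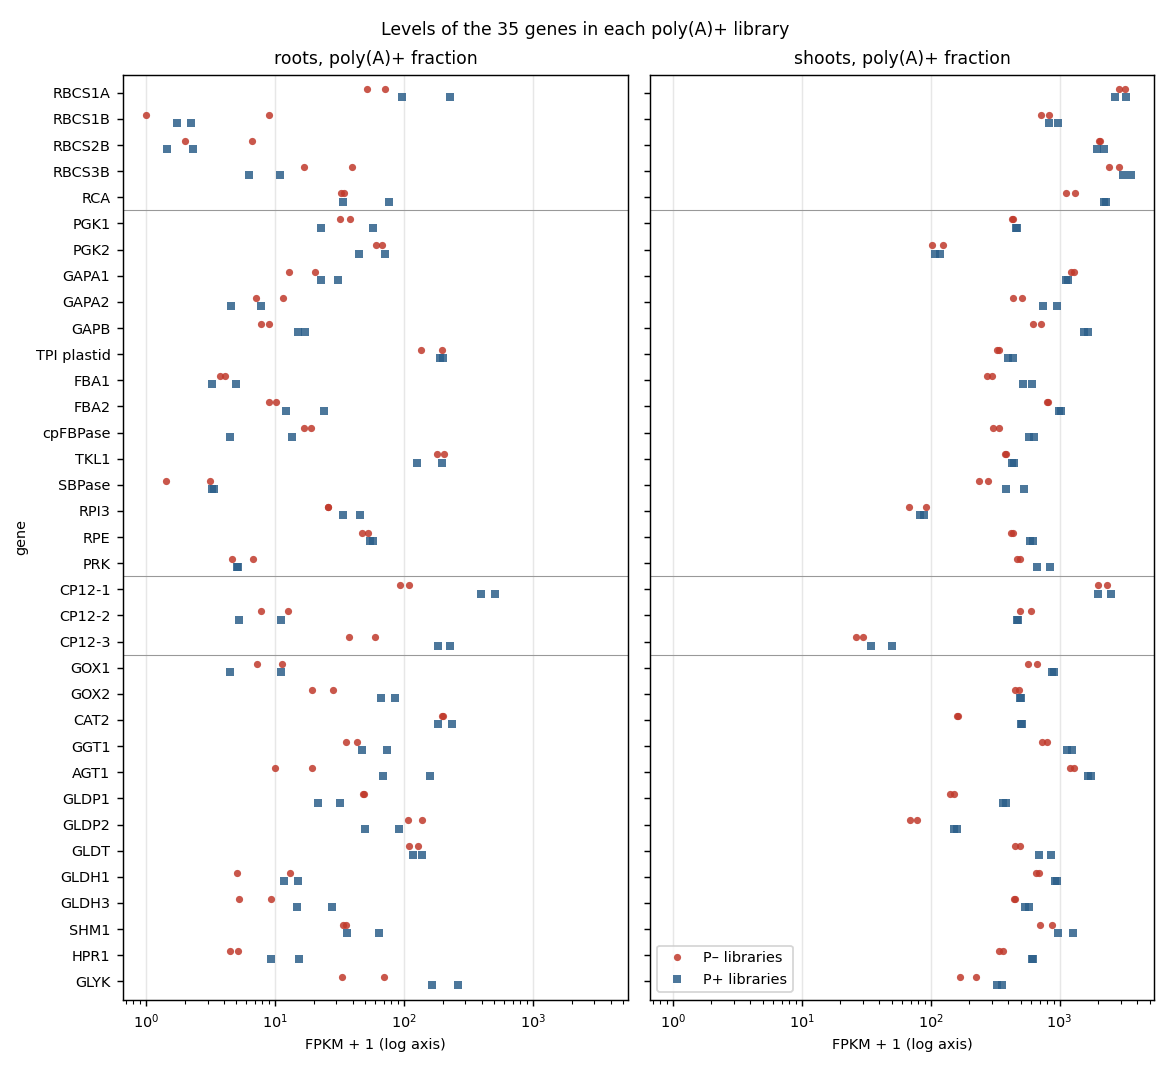
FPKM + 1 of each gene on a log axis, 1 point per poly(A)+ library, roots left and shoots right, with P– libraries as circles and P+ libraries as squares. Grey lines separate Rubisco with its activase, the other Calvin cycle enzymes, CP12 and photorespiration. Most root values lie far left of the shoot values, while those of PGK2, CAT2, GLDP2, GLYK and CP12-3 overlap or come near them.

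The widest gap was that of RBCS2B (AT5G38420), a small subunit of Rubisco. It had 1 and 5.68 FPKM in P– roots, against 2029.9 and 2046.2 FPKM in P– shoots, a log2 difference of -9.12 (SE 0.5, adjusted p = 4.88e-06, limma). In P+ roots it had 1.33 and 0.445 FPKM, against 2229.9 and 1957.9 FPKM in P+ shoots, and the log2 difference was -10.15 (SE 0.5, adjusted p = 2.17e-06, limma). GAPB, FBA1 and PRK (a GAPDH subunit, a plastid aldolase and phosphoribulokinase) had log2 differences between -6.2 and -6.42 under P– and between -6.65 and -7.18 under P+.

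CP12-3 ran the other way. It had 183.1 and 227.5 FPKM in P+ roots, against 49 and 33.3 FPKM in P+ shoots, a log2 difference of 2.31 (SE 0.31, adjusted p = 0.000331, limma). Under P– it had 58.4 and 36.6 FPKM in roots, against 28.7 and 25.3 FPKM in shoots, and the log2 difference of 0.76 (SE 0.31) was not called (adjusted p = 0.0769, limma), although it was without library 3 of P– roots (1.09, adjusted p = 0.0435). GLYK, glycerate kinase, which returns photorespiratory carbon to the chloroplast, was the remaining exception under P+ (-0.72, SE 0.39, adjusted p = 0.16, limma). Under P–, CAT2 (0.3, adjusted p = 0.344) and GLDP2 (0.73, adjusted p = 0.0939) were the others not called. CAT2, the catalase that removes peroxide from glycolate oxidation, had 201.7 and 195.1 FPKM in P– roots, against 162.1 and 160.7 FPKM in P– shoots.

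In P– roots, 6 of the 35 genes were lower than in P+ roots (1.98% of all genes tested were lower) and none was higher (2.47% of all genes). At an unadjusted p under 0.05, 12 were lower (9.77% of all genes) and 4 higher (12.2%). The 6 were CP12-1, CP12-3 and the photorespiration genes AGT1, GOX2, GLYK and HPR1. Neither Rubisco nor the other Calvin cycle enzymes had a called gene. The median log2 change of the members was -0.25, against 0.07 for all genes, and both P– libraries lay below both P+ libraries for 16 members (19.2% of all genes) and above for 4 (26.2%).

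Among the Rubisco genes in roots, RBCS1A (AT1G67090) had 50.7 and 70.1 FPKM under P–, against 227.9 and 95.1 FPKM under P+. The groups did not overlap, and the log2 change of -1.29 (SE 0.41) was not called (adjusted p = 0.116, limma). RBCS3B (AT5G38410) had 15.7 and 38.9 FPKM in P– roots, against 9.87 and 5.24 FPKM in P+ roots. It had the highest log2 change of all members in roots, 1.65 (SE 0.43, adjusted p = 0.0708), with P– above P+ in every library. RBCS1B (AT5G38430) was listed at 0 and 8.03 FPKM in P– roots, against 1.25 and 0.754 FPKM in P+ roots, and the RBCS2B libraries under P– likewise differed from each other more than the groups did. RCA (AT2G39730), Rubisco activase, which frees blocked active sites, had 31.8 and 33.3 FPKM in P– roots, against 75.3 and 32.8 FPKM in P+ roots, a difference carried by 1 library (log2 change -0.6, SE 0.36, adjusted p = 0.372). Without library 3 of P+ roots, RBCS1A (-1.92, adjusted p = 0.0113) and RCA (-1.19, adjusted p = 0.0198) were called, and without library 2 of P– roots RBCS1B was (2.18, adjusted p = 0.0304), all by limma.

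The 3 RBCS genes on chromosome 5 lie in tandem on the minus strand (RBCS3B at 15376988 to 15378642, RBCS2B at 15380907 to 15382071, RBCS1B at 15383167 to 15385320). Their coding sequences are 94.1 to 97.3% identical to each other and 88.1 to 90.5% identical to that of RBCS1A on chromosome 1, so the split of reads between them is uncertain. Summed over the 4 genes, the small subunit transcripts came to 67.4 and 122.7 FPKM in P– roots, against 240.4 and 101.6 FPKM in P+ roots. These groups overlapped.

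The 14 other Calvin cycle genes spanned log2 changes of -0.93 to 1.2 in roots, with a median of -0.12. GAPB (AT1G42970) was at the low end with 6.8 and 8.07 FPKM in P– roots, against 14.1 and 16 FPKM in P+ roots (-0.93, SE 0.23, adjusted p = 0.0617, limma). The groups were apart, and the call was missed by little. At the high end stood cpFBPase (AT3G54050), the plastid fructose bisphosphatase, with 18.2 and 15.8 FPKM in P– roots, against 3.47 and 12.6 FPKM in P+ roots (1.2, SE 0.45, adjusted p = 0.164, limma). SBPase, the other bisphosphatase of the cycle, was among the least abundant members in roots, at 0.427 and 2.16 FPKM under P– and 2.23 and 2.37 FPKM under P+. TKL1 (transketolase) and the plastid triose phosphate isomerase, by contrast, reached 124.7 to 203.7 FPKM in the 4 root libraries.

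**Figure D2:**
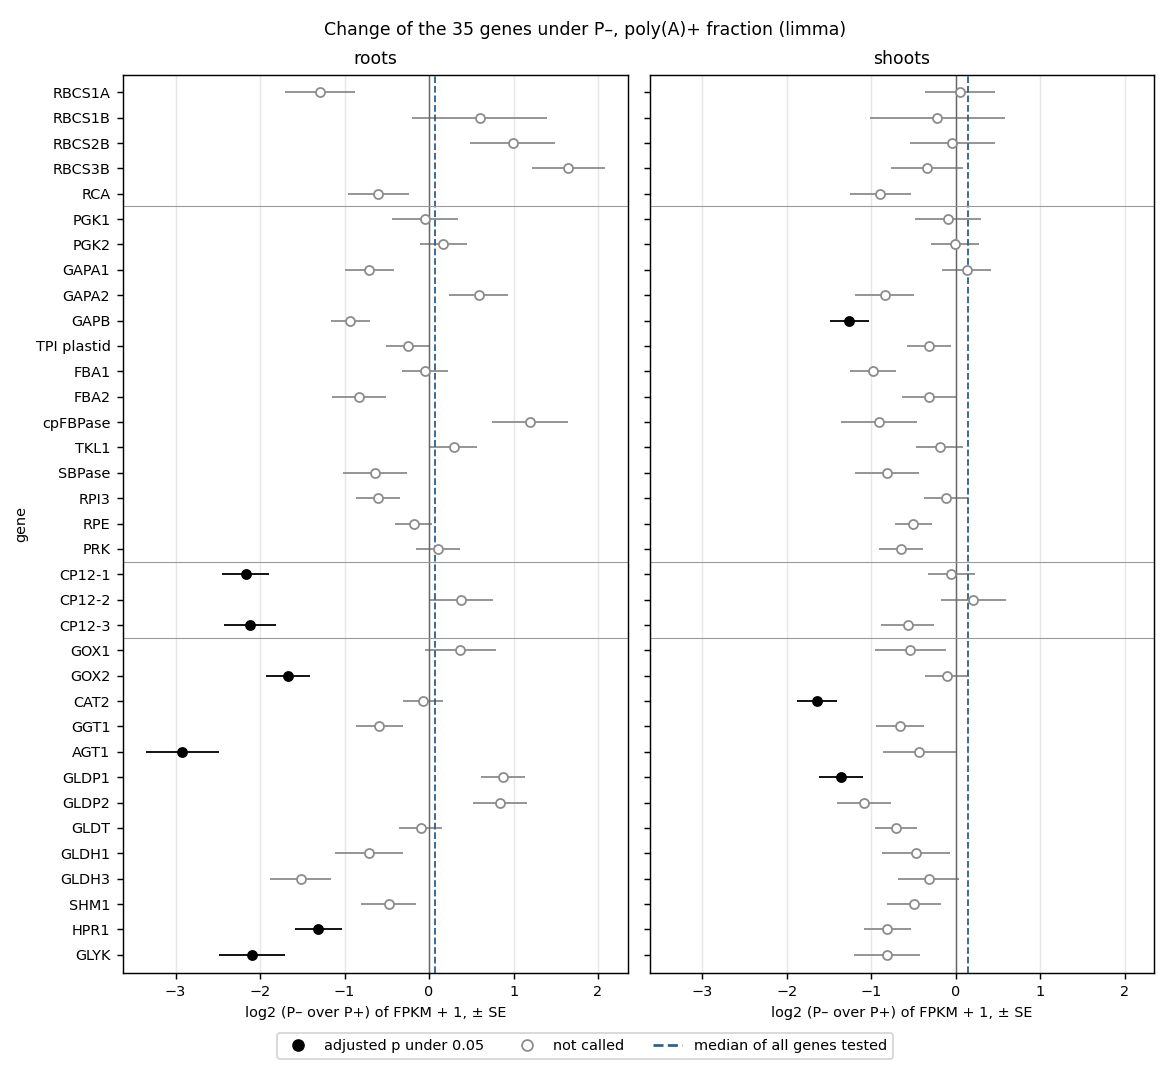
Log2 change of P– over P+ with its SE (limma, log2 of FPKM + 1) for each gene, roots left and shoots right. Filled points had an adjusted p under 0.05, and the dashed line is the median of all genes tested (0.07 in roots, 0.14 in shoots). The root changes spread from -2.92 to 1.65, and the shoot changes lie mostly between 0 and -1.64.

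CP12 proteins bind GAPDH and phosphoribulokinase in an inactive complex in the dark. CP12-1 (AT2G47400) fell to 91.6 and 108.2 FPKM in P– roots, against 397.7 and 509.9 FPKM in P+ roots (log2 change -2.17, SE 0.28, adjusted p = 0.005, limma). CP12-3 (AT1G76560) fell to 58.4 and 36.6 FPKM, against 183.1 and 227.5 FPKM (-2.12, SE 0.31, adjusted p = 0.00831, limma). CP12-2 (AT3G62410) had 6.86 and 11.6 FPKM in P– roots, against 10.1 and 4.28 FPKM in P+ roots, and its groups overlapped (0.38, SE 0.38, adjusted p = 0.593). The 3 coding sequences are 58 to 71.3% identical. The calls of CP12-1 and CP12-3 held without each library in turn (adjusted p up to 0.0497 and 0.0451).

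Of the photorespiration genes in roots, AGT1 (AT2G13360), the peroxisomal aminotransferase that makes glycine and hydroxypyruvate from serine and glyoxylate, had the most negative change. It had 8.93 and 18.4 FPKM in P– roots, against 68 and 158.1 FPKM in P+ roots (log2 change -2.92, SE 0.43, adjusted p = 0.00876, limma). Every P– library lay below every P+ library, although the P+ libraries differed from each other by more than the P– ones. GOX2 (AT3G14415), a glycolate oxidase of the peroxisome, had 18.5 and 27.1 FPKM in P– roots, against 83.7 and 65 FPKM in P+ roots (-1.67, SE 0.26, adjusted p = 0.0116, limma). GLYK had 32.3 and 69.2 FPKM under P–, against 164.6 and 259.6 FPKM under P+ (-2.1, SE 0.39, adjusted p = 0.0211, limma). HPR1 (AT1G68010), hydroxypyruvate reductase of the peroxisome, had 3.48 and 4.2 FPKM in P– roots, against 14.3 and 8.4 FPKM in P+ roots (-1.31, SE 0.28, adjusted p = 0.036, limma). The groups of all these genes were apart.

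Without library 2 of P– roots, none of these 4 was called (AGT1 -2.43, GOX2 -1.41, GLYK -1.57 and HPR1 -1.2, adjusted p 0.0783, 0.086, 0.122 and 0.186, limma). GLYK also missed the threshold without any one shoot library (adjusted p 0.0571 to 0.0595), since the tissues share 1 estimate of the spread, and with the replicate number of the shoots as a block (0.057). HPR1 missed it without every library other than library 3 of P+ roots (adjusted p 0.0615 to 0.186) and with the block (0.0827). In the other direction, the glycine decarboxylase P protein genes GLDP1 (0.88, adjusted p = 0.0935) and GLDP2 (0.84, adjusted p = 0.167) had higher levels in P– roots, apart from P+ but not called. GLDP1 had 47 and 48.1 FPKM in P– roots, against 20.6 and 31.1 FPKM in P+ roots. GLDP2 had 107.1 and 136.6 FPKM, against 49 and 91.4 FPKM.

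In P– shoots, 3 of the 35 genes were lower than in P+ shoots (3.26% of all genes tested were lower) and none was higher (5.09% of all genes). At an unadjusted p under 0.05, 11 were lower (9.75% of all genes) and none higher (15.8%). The 3 were CAT2, GAPB and GLDP1. Beyond the calls, 32 of the 35 log2 changes were negative, with a median of -0.49 against 0.14 for all genes, and both P– libraries lay below both P+ libraries for 27 members (25.9% of all genes) and above for GAPA1 and CP12-2 (40.4%). Within replicate 1 and within replicate 2, which differ in their read setting, 28 members were lower under P– in both and 2 were higher in both. These counts come from the same shoot libraries as the ones before, and their share over all genes was not computed. With libraries rescaled to a common median ratio the median of all genes in shoots was 0.00, a shift of about the size of the positive changes of GAPA1 (0.13) and CP12-2 (0.21).

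The fit shares 1 spread between tissues, and members varied less between shoot replicates than between root replicates. The root mean square SD of their log2 values was 0.59 in P– roots and 0.55 in P+ roots, against 0.14 in P– shoots and 0.15 in P+ shoots. Fitted on the shoot libraries alone, 14 members were lower under P– (10.9% of the 18345 genes tested there) and none was higher (16.5%). Without any one shoot library none was called. Without library 2 or library 3 of P+ roots 8 were lower (6.66 and 6.55% of all genes).

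No small subunit gene of Rubisco was called in shoots. RBCS1A had 3226.5 and 2916.3 FPKM in P– shoots, against 3252.1 and 2701.7 FPKM in P+ shoots (log2 change 0.05, SE 0.41, adjusted p = 0.961, limma), and its sign turned with rescaling (-0.11). RBCS2B had 2029.9 and 2046.2 FPKM under P–, against 2229.9 and 1957.9 FPKM under P+ (-0.04, SE 0.5, adjusted p = 0.981). RBCS1B (832.5 and 721.3 FPKM in P– shoots, against 974.4 and 831 FPKM in P+ shoots) overlapped by a narrow margin. RBCS3B had 2902.2 and 2403.5 FPKM in P– shoots, against 3612.4 and 3096.3 FPKM in P+ shoots, with groups apart and no call (-0.34, SE 0.43, adjusted p = 0.667). RCA had 1329.4 and 1128.9 FPKM in P– shoots, against 2229.3 and 2304.6 FPKM in P+ shoots (-0.89, SE 0.36, adjusted p = 0.171), with the groups well apart. Its change was -0.75 in replicate 1 and -1.03 in replicate 2, and it was called on the shoot libraries alone (adjusted p = 0.0126, limma).

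Of the Calvin cycle enzymes in shoots, GAPB, the B subunit of the chloroplast GAPDH, had 619.5 and 719.5 FPKM under P–, against 1657.1 and 1548.2 FPKM under P+. Its log2 change was -1.26 (SE 0.23, adjusted p = 0.0157, limma), with -1.42 in replicate 1 and -1.1 in replicate 2. FBA1 (AT2G21330) followed with 274.8 and 298.3 FPKM in P– shoots, against 522.8 and 609.1 FPKM in P+ shoots (-0.98, SE 0.27, adjusted p = 0.0632, limma). For 11 of the 14 genes both P– libraries were below both P+ libraries (25.9% of all genes). The list ranged from -1.26 to 0.13 with a median of -0.41. The A subunit gene GAPA1 (AT3G26650) was at the upper end with 1219.9 and 1304 FPKM under P–, against 1130.9 and 1171.9 FPKM under P+ (0.13, SE 0.29, adjusted p = 0.825). CP12-1 had 2339.5 and 2004.1 FPKM in P– shoots, against 2518.2 and 1999 FPKM in P+ shoots (-0.05, SE 0.28, adjusted p = 0.939), and these groups overlapped. CP12-2 had the highest log2 change of the members in shoots, with 601.9 and 495.1 FPKM under P–, against 467 and 479.6 FPKM under P+ (0.21, SE 0.38, adjusted p = 0.781).

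All 13 photorespiration genes had lower values in both P– shoot libraries than in both P+ shoot libraries (25.9% of all genes did). Their log2 changes were -1.64 to -0.1, with a median of -0.66. CAT2 (AT4G35090) fell to 162.1 and 160.7 FPKM in P– shoots, against 508 and 503.2 FPKM in P+ shoots (-1.64, SE 0.24, adjusted p = 0.00632, limma), and the change was -1.64 in each replicate number. GLDP1 (AT4G33010) fell to 140.5 and 151.4 FPKM, against 384.5 and 366.2 FPKM (-1.36, SE 0.26, adjusted p = 0.0177, limma), with -1.45 in replicate 1 and -1.27 in replicate 2. Its paralog GLDP2 (AT2G26080) had 68.5 and 77.1 FPKM in P– shoots, against 152 and 159.5 FPKM in P+ shoots, just short of a call (-1.09, SE 0.32, adjusted p = 0.069). AGT1, which had the most negative change in roots, had 1214 and 1303 FPKM in P– shoots, against 1741 and 1654.4 FPKM in P+ shoots (-0.43, SE 0.43, adjusted p = 0.579). Without any one shoot library, CAT2 (adjusted p 0.0679 to 0.0866), GAPB (0.0875 to 0.163) and GLDP1 (0.108 to 0.163) were no longer called, at log2 changes between -1.15 and -1.65.

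The difference between the tissues was tested as the root log2 change minus the shoot log2 change. CP12-1 was the 1 member with a lower value (1.91% of all genes tested), at -2.11 (SE 0.4, adjusted p = 0.0301, limma), with -2.17 in roots and -0.05 in shoots. GLDP1 (2.24, SE 0.36, adjusted p = 0.0187) and CAT2 (1.57, SE 0.34, adjusted p = 0.0433) were the 2 members with a higher value (1.64% of all genes). GLDP1 changed by 0.88 in roots and -1.36 in shoots, and CAT2 by -0.07 in roots and -1.64 in shoots. AGT1 had the most negative value of the members, -2.48 (SE 0.61), which was not called (adjusted p = 0.0638). With the replicate number of the shoot libraries as a block none was called (CP12-1 0.0638, GLDP1 0.055 and CAT2 0.0936, adjusted p by limma). Nor was any of the 3 without any one P– root library or any one shoot library (CP12-1 -1.95 to -2.28, adjusted p 0.0626 to 0.164), while without library 2 or library 3 of P+ roots AGT1 was called (-3.09, adjusted p = 0.0194, and -1.88, adjusted p = 0.0492).

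Genes that encode the same enzyme differed in how their shares shifted, given here without a test. RBCS3B made up 23.3 and 31.7% of the small subunit FPKM in P– roots, against 4.11 and 5.16% in P+ roots, and RBCS1A 75.3 and 57.1%, against 94.8 and 93.7%. In shoots RBCS1A held 35.9 and 36.1% under P–, against 32.3 and 31.5% under P+. GAPA1 held 53.5 and 51.5% of the GAPDH A and B sum in P– shoots, against 32 and 31.8% in P+ shoots, while GAPB held 27.2 and 28.4%, against 46.9 and 42.1%. The coding sequences of GAPA1 and GAPA2 (1191 and 1326 bases long) are 77.5% identical, with gaps in the alignment counted as differences. Those of the tandem pair GOX1 and GOX2 on chromosome 3 are 90.9% identical. Those of the small subunit genes are 88.1 to 97.3% identical. The split of reads between such genes is uncertain, the more so where identity is higher.

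Among the catalases the shares shifted in shoots. CAT2 made up 5.91 and 5.98% of the catalase sum in P– shoots, against 32.4 and 31.8% in P+ shoots. CAT3, which is not a member and is described with its family, had 2499.8 and 2437.4 FPKM in P– shoots, against 962.6 and 980.7 FPKM in P+ shoots (log2 change 1.34, SE 0.28, adjusted p = 0.0261, limma). The summed catalase level was 2745.0 and 2688.4 FPKM in P– shoots, against 1566.8 and 1581.7 FPKM in P+ shoots. In roots CAT2 held 42.7 and 34.2% under P–, against 44.7 and 43.2% under P+.

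Some shares divided the tissues more than the Pi supply. GLDP2 held 69.5 and 73.9% of the P protein sum in P– roots and 70.4 and 74.6% in P+ roots, against 32.8 and 33.7% in P– shoots and 28.3 and 30.3% in P+ shoots. CP12-3 held 37.2 and 23.4% of the CP12 sum in P– roots and 31 and 30.7% in P+ roots, against 0.965 to 1.61% in the shoot libraries. FBA3, a plastid aldolase outside the 35 genes, held 92.5 to 96.1% of the plastid aldolase sum in roots. In shoots it held 13.9 and 10.3% under P–, against 3.55 and 3.6% under P+.

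**Figure D3:**
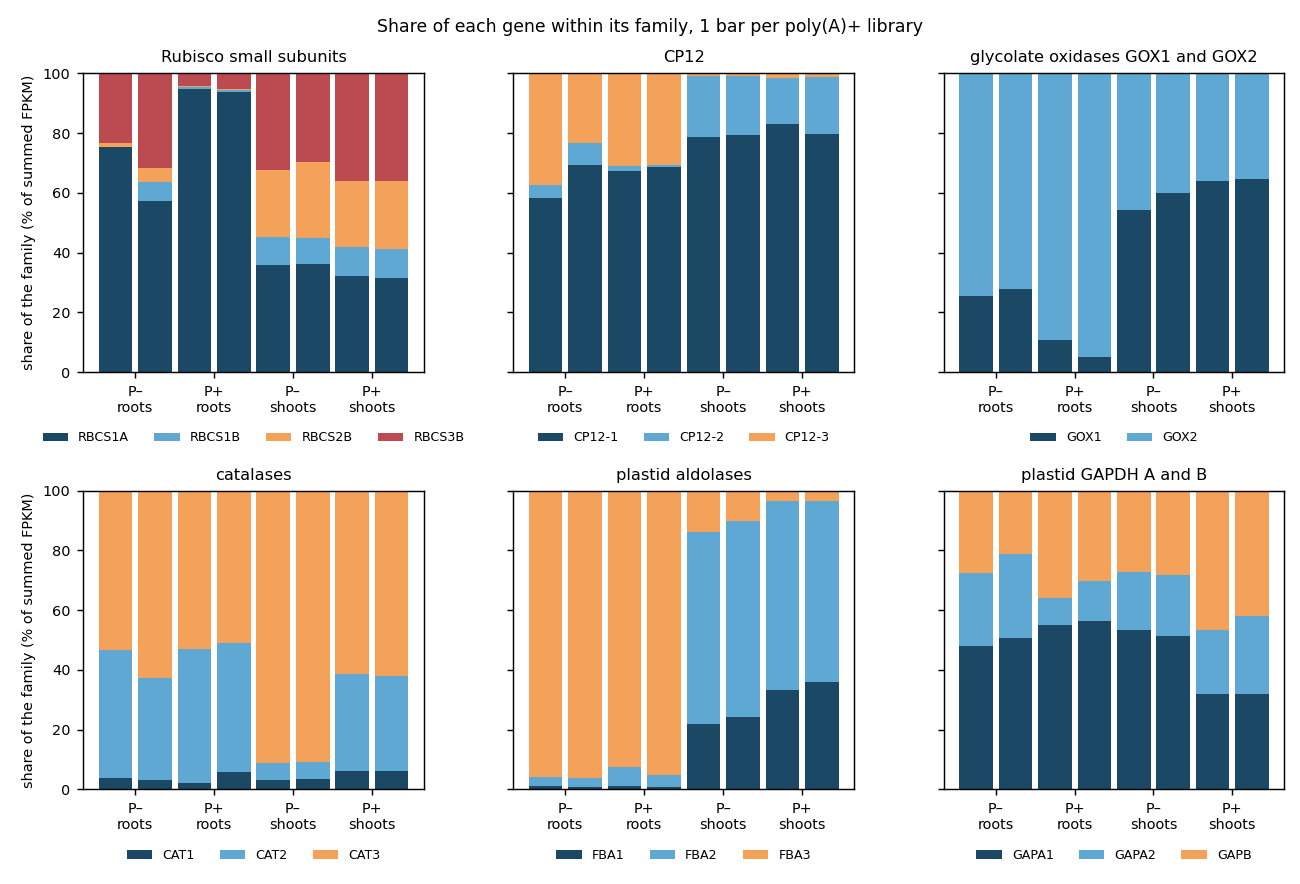
Share of each gene in the summed FPKM of its family (%), 1 bar per poly(A)+ library, with P– left of P+ in roots and then in shoots. CAT2 holds under 6% of the catalase sum in both P– shoot libraries and over 31% in both P+ shoot libraries, and RBCS3B holds over 23% of the small subunit sum in both P– root libraries.

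Neighbouring gene lists, chosen by function with earlier results of these data known, gave the setting in shoots. Of 15 other photorespiration genes, 3 were lower in P– shoots (3.26% of all genes) and none was higher (5.09%). They were GGT2 (an aminotransferase of the peroxisome, -1.43, adjusted p = 0.0197), PLGG1 (the plastid exporter of glycolate and importer of glycerate, -1.39, adjusted p = 0.0273) and GLU1 (ferredoxin-dependent glutamate synthase, which reassimilates ammonium, -1.19, adjusted p = 0.0408, limma). PLGG1 had 89.1 and 99.7 FPKM in P– shoots, against 239.7 and 256.6 FPKM in P+ shoots. The list had a median log2 change of -0.5, against -0.66 for the 13 members.

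The 25 glycolytic and other isoforms of the same enzymes had a median of 0.8 in shoots, with 5 genes higher (5.09% of all genes) and 2 lower (3.26%). GOX3 had 13.5 and 9.21 FPKM in P– shoots, against 3.6 and 2.78 FPKM in P+ shoots (1.54, adjusted p = 0.0163, limma). The aldolase FBA8 had 219.7 and 210.3 FPKM, against 72.7 and 79.9 FPKM (1.48, adjusted p = 0.017), and FBA3 173.8 and 127.2 FPKM, against 55.6 and 61.1 FPKM (1.34, adjusted p = 0.0221). These 3 genes were also higher in roots than in shoots under either supply. For all 12 root markers, whose sums are given above, both P– shoot libraries lay above both P+ shoot libraries (40.4% of all genes). In poly(A)– this held for 3 of the 11 root markers tested there (25.8% of all genes). The part of the marker rise in the changes of these isoforms was not tested. CAT3 and SHM4 were the others that rose, and FBA5 and the cytosolic bisphosphatase cyFBPase fell.

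Of 9 Rubisco assembly genes, RBCX2 was lower in P– shoots (-1.44, adjusted p = 0.0324), and of 17 light-harvesting genes LHCB2.3 was (-1.99, adjusted p = 0.00779, limma). Of all genes tested, 3.26% were lower in P– shoots. In roots the 15 other photorespiration genes and the 25 isoforms had no call in either direction, at medians of 0.39 and 0.08. Over all genes, 1.98% were lower and 2.47% higher in P– roots. RAF2, a Rubisco assembly factor, was lower in P– roots (-1.8, adjusted p = 0.0378). Among the 17 light-harvesting genes LHCB4.1, LHCA1 and LHCA4 were lower in P– roots (-1.6, -1.57 and -2.14, adjusted p 0.0213, 0.0318 and 0.0479, limma), and the median of that list was -1.1, against -0.25 for the 35 members.

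**Figure D4:**
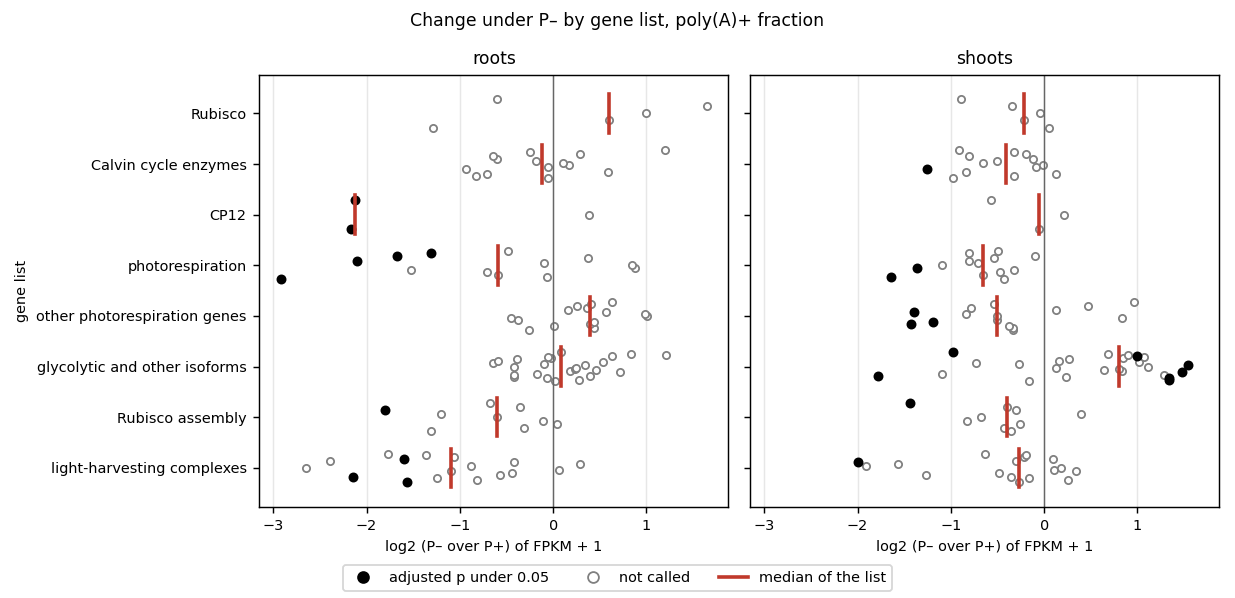
Log2 change of P– over P+ (log2 of FPKM + 1) of single genes by list, roots left and shoots right, with the 4 role groups of the 35 genes at the top and the neighbouring lists under them. Filled points had an adjusted p under 0.05 (limma) and the bar is the median of a list, which in shoots is -0.66 for photorespiration and 0.8 for the glycolytic and other isoforms.

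The poly(A)– fraction was fitted on its own. AGT1 was the 1 member lower in P– roots there (0.0668% of all 19455 genes tested), with 11.5 and 15.8 FPKM in P– roots, against 113.6 and 130.7 FPKM in P+ roots (-3.08, SE 0.28, adjusted p = 0.0214, limma). It was not called without any one library (adjusted p 0.072 to 0.104) or when roots were fitted on their own (0.0675). At an unadjusted p under 0.05, 14 members were lower (4.72% of all genes) and 1 was higher (3.98%) in P– roots, and both P– libraries lay below both P+ libraries for 18 members (20.8% of all genes) and above for 2 (18.3%). In shoots none was lower (0.314% of all genes) or higher (0.745%) by limma, with 9 lower (5.45% of all genes) and none higher (10.2%) at an unadjusted p under 0.05. The study reports that most reads of poly(A)– shoot samples were from chloroplast and mitochondria, and it removed them. Over all genes, the root mean square SD was 0.89 in P– and 0.87 in P+ shoots, against 0.33 and 0.32 in poly(A)+. For the members it was 0.28 and 0.18, against 0.14 and 0.15. The bearing of this on the calls was not tested. The log2 changes in P– shoots were negative for 34 of the 35 genes, with a median of -0.68 against 0.14 for all genes, and both P– libraries were below both P+ libraries for 31 (15.4% of all genes) and above for none (25.8%). GLDT (-1.33, adjusted p = 0.0723) and CAT2 (-1.35, adjusted p = 0.0756) came nearest to a call. The root minus shoot difference gave no call in either direction (0.0206 and 0.0463% of all genes), with 3 members lower (7.11% of all genes) and 4 higher (4.27%) at an unadjusted p under 0.05. Roots were lower than shoots for 28 members under P– (9.83% of all genes) and for 30 under P+ (10.2%). GLDP2 was the 1 member higher in roots, under P– (15.7% of all genes), with 102.1 and 169.4 FPKM in P– roots, against 46.9 and 65.1 FPKM in P– shoots (1.24, SE 0.32, adjusted p = 0.0283, limma), and none was higher in roots under P+ (20.6%).

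The members were spread over both fractions. The median log2 ratio of the poly(A)+ over the poly(A)– level was 0.25 in P– roots and -0.01 in P+ roots, and for shoots 0.31 under P– and 0.21 under P+. The medians of all genes were 0.27, 0.18, 0.23 and 0.3 in the same order. RBCS1B stood highest in P– shoots (2.01) and RBCS3B lowest in P+ shoots (-0.89), a pair with 94.1% identical coding sequences. Each fraction was scaled to its own total, so these ratios compare genes with each other and not amounts of RNA.

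GLYK (AT1G80380), on chromosome 1 from 30217116 to 30220595 (plus strand), was the 1 member with an antisense transcript among the assembled lncRNAs. XLOC_008155 (minus strand, 30217414 to 30220480) overlaps it by 3067 bases. The lncRNA had 2.22 and 2.28 FPKM in P– roots, against 15.1 and 20.2 FPKM in P+ roots, and 2.12 and 1.21 FPKM in P– shoots, against 6.8 and 4.58 FPKM in P+ shoots. The labels give some libraries an unstranded setting, against the strand-specific protocol of the study. Where strand was not used, reads of the 2 strands cannot be told apart and the levels of the pair are not independent, and their relation was not tested. The transcripts of GLYK also differed by tissue. AT1G80380.2 made up 40.7 and 48.7% of the gene in P– roots and 23.9 and 32.2% in P+ roots, against 88.7 and 92.1% in P– shoots and 90.7 and 88.3% in P+ shoots. With the most abundant transcript in place of the sum, GLYK was not called in roots (-1.4, adjusted p = 0.153, limma). Of the 35 genes, 15 had a single transcript in the table, and the others had 2 to 6.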

How the data were processed

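RNA-seq of 16 Arabidopsis libraries was used in the form the authors deposited. The authors aligned reads with TopHat2 to TAIR10, removed those of the chloroplast and mitochondrial genomes, assembled transcripts with Cufflinks and estimated FPKM per transcript and library with eXpress. The replicates were not pooled. The deposited lncRNA coordinates, also from the authors, were used only to find antisense transcripts. The deposited sheets of differential expression hold the authors' log2 fold changes and DESeq2 p-values and were not used. The deposited tables hold no counts per gene, so a count model was not used and no counting error is given. The study lists read totals per library, which were not used here.

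FPKM was summed per locus, 1 FPKM was added, and log2 values were tested for genes averaging 1 FPKM or more across the 8 libraries of their fraction, 19743 in poly(A)+ and 19455 in poly(A)–. All 35 members passed in both. A fold change is therefore on the log2(FPKM + 1) scale, which understates the change of low genes. limma 3.58.1 (R 4.3.3) took the 4 groups of each fraction in 1 model, with moderated variances that follow the mean level. Tests are two-sided, and p-values were adjusted by Benjamini and Hochberg over all genes tested. The replicates are called biological in the study, with 2 samples a group. In the joint fit the p-values rest on 1 moderated spread per gene, pooled over the 4 groups of both tissues. They do not measure the spread within the 2 compared groups alone.

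The root columns are numbered 2 and 3 and were assigned to groups only. Shoot columns carry the replicate number of the labels, which also sets the read setting. Deviations of same-numbered shoot libraries correlated at 0.23 in poly(A)+ and 0.03 in poly(A)–, and only the shoots could be paired, so the block was kept as an alternative. Other alternatives were 0.1 or 5 FPKM added, no filter, a mean of at least 5 FPKM, rescaling to a common median ratio, each tissue alone, no variance trend, the most abundant transcript, and leaving out each library. Over all genes, rescaling gave 500 lower and 405 higher genes in roots (391 and 487 without it) and 948 and 794 in shoots (644 and 1005 without it).

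In simulated data each gene had its own spread per tissue, pooled over the P– and P+ groups. Changes were given to 100 genes per size, drawn from those of higher mean level. An adjusted p of 0.05 (limma) recovered 8% of poly(A)+ changes of log2 1 and 55% of log2 2 in roots, and 1 and 53% in shoots. In poly(A)–, 3% of changes of log2 2 were recovered in roots and 17% in shoots. The number of changed genes bears on the adjusted p, and the poly(A)+ fits of the data called more genes, so recovery there may differ.

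Members, comparison lists and tests were chosen with earlier results of these data known. Values in single libraries are given for the small subunit genes and activase. They are also given for members called between P– and P+ or in the tissue difference. In poly(A)+, members at either end of a comparison have them too. Most members called between roots and shoots are covered by counts or log2 differences. Up to 3 genes per comparison are given with values from each other list, CAT3 is given with its family, and further called isoforms are only named. Families are described whole. Other members with values (SBPase, TKL1, RBCS1B and others named with a count) were picked with their values already seen. Positions, promoters and identities come from RefSeq TAIR10.1, which shares the TAIR10 chromosome sequences. Identity is the share of identical bases over all aligned columns of the longest coding sequences, gaps included. 1 further promoter is not reported here. Of 971 lncRNAs that the deposited table calls antisense and places on chromosomes 1 to 5, 925 overlap a coding gene on the other strand there. Scripts ran under Python 3.11.15, numpy 2.4.6 and pandas 2.3.3.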

Additional observations from a re-analysis of the deposited data

Results flagged for a closer look

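For 3 genes the response to P– differed between roots and shoots by the test of the difference itself (limma, root minus shoot log2 change, adjusted over 19743 genes, 2 libraries a group). They were CP12-1 at -2.11 (adjusted p = 0.0301), where both P– root libraries lay below both P+ root libraries while the shoot groups overlapped, GLDP1 at 2.24 (adjusted p = 0.0187), with P– above P+ in roots and below it in shoots in every library, and CAT2 at 1.57 (adjusted p = 0.0433), with overlapping root groups and P– below P+ in both shoot libraries. Of all genes tested, 1.91% had a lower and 1.64% a higher difference. These 3 calls were lost with the replicate number of the shoots as a block, and when any one P– root or shoot library was left out. The poly(A)– fraction gave no call for this difference. There the GLDP1 root levels overlapped (P– 47.1 and 39.0, P+ 65.2 and 31.8 FPKM). CP12-1 in roots and CAT2 in shoots kept both P– libraries below both P+ libraries there. No explanation was tested.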

How the results depend on the processing

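Counts are of members at an adjusted p under 0.05 in limma. The share of all genes called also moved with the fit, so a changed count may not be particular to the members. In P– shoots, 10.9% of all genes were lower when shoots were fitted alone, against 3.26% in the joint fit. Each tissue on its own gave 3 lower in P– roots (6 in the joint fit, with GOX2, GLYK and HPR1 lost), 14 lower in P– shoots (3) and 0 lower in poly(A)– P– roots (1). Rescaling gave 5 lower in P– shoots, with FBA1 and GLDP2 added, and 1 in poly(A)– shoots (GLDT, 0 in the joint fit), as did 0.1 FPKM added. Without the filter, 0 members were lower and 1 was higher in the root minus shoot difference (1 and 2 with it), and 1 was higher with no variance trend or with the most abundant transcript. In poly(A)– P– roots, 5 FPKM added and the most abundant transcript each gave 2. The replicate block of the shoots left 0 lower and 0 higher in the difference, with 4 members lower in P– roots, 3 for P– shoots, 1 for poly(A)– P– roots, and 31 and 33 members lower in roots than in shoots under P– and P+. It ended the calls of GLYK (0.057) and HPR1 (0.0827) and of the 3 differences between tissues, and no other call of a named member.

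Leaving out each library in turn, where a lone library is assumed to vary like the other groups, gave 2 to 12 members lower and 0 to 3 higher in P– roots, 0 to 8 lower in P– shoots, 0 to 5 lower and 0 to 5 higher in the difference, and 0 lower in poly(A)– P– roots. Signs turned only for genes not called in the joint fit: RBCS1B in roots (-0.25 with 0.1 FPKM added, -0.99 to 2.18 without single libraries), RBCS1A in shoots (-0.11 rescaled, -0.08 to 0.18 without single libraries) and RBCS2B in shoots (-0.13 to 0.06 without single libraries). The causes were not tested. Few changes of log2 1 were recovered when the joint fit was tried on simulated data.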
